A study of Bos taurus with 32 samples.

Results

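The genes described here are 150 cattle genes with a similar level in 4 tissues whose RNA was lower in the pituitary of every calf from an in vitro embryo than in that of every control calf, with no such separation in the other tissues. Levels are read counts scaled to a library total of 1e6 (CPM). A gene entered when its mean was at least 2 CPM in all 4 tissues, when its highest tissue mean was under 5 times its lowest, when the pituitary ranges of the 2 origins were apart with the in vitro calves lower, and when the ranges overlapped in the hypothalamus, testicle and adrenal. Of 27607 Ensembl gene IDs, 11576 had the level, 9492 of those had the similar levels and are called broad genes here, and 218 met the whole rule. The 150 with the largest log2 ratio of group means in the pituitary are the members, numbered by rank. The members were chosen on these pituitary values, so the values describe them and test nothing.

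The study measured mRNA by sequencing in 8 male Holstein calves, with 1 library for each of 4 tissues of a calf (pituitary, hypothalamus, testicle, adrenal). Calves 3208, 3209, 5833 and 5841 came from embryos produced in vitro (IVP) and were 98 to 103 days old. Calves 3213, 3217, 3218 and 5932, the controls, came from embryos conceived in vivo after superovulation and insemination (MOET, multiple ovulation and embryo transfer). Calves 3217, 3218 and 5932 were 102 to 104 days old and calf 3213 was 144 days old. All embryos grew to term in recipient cows, and the calves were then kept alike until sampling. The labels name no further treatment or allele.

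The pituitary is the gland under the hypothalamus whose anterior cells secrete growth hormone, prolactin and the hormones that steer the testis, adrenal and thyroid. Much of its RNA codes for those hormones, while broadly expressed genes mostly serve tasks that many cell types share. In vitro production covers oocyte maturation, fertilisation and culture outside the cow, and it is studied for its effects on growth and later physiology. The count table pairs no ID with a gene symbol and 0 IDs were found in the RefSeq table used here, so the members' roles are not given, and neither hormone genes nor cell type markers could be looked up.

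The libraries held 17357283 to 23380330 counts, and the 8 pituitaries 20164948 to 23380330. Without symbols, the tissue label could not be checked on known marker genes. Shares of counts were taken for 149 genes with at least 8-fold higher mean in the pituitary than in each other tissue. These genes were picked on these libraries, so a high pituitary share is built in and does not check the label. They took 24.1% to 32.5% of the counts in IVP and 24.9% to 38.2% in MOET pituitaries, ranges that overlap. The 458 genes enriched in the same way in the neighbouring hypothalamus took 0.175% to 0.265% of pituitary counts. Their low share there is built in as well. In such bulk RNA, fewer cells of a type and less RNA per cell cannot be told apart.

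Among the 32 libraries, 5 did not vary as separately measured samples do. These were the 4 libraries of MOET calf 3213 and the adrenal library of IVP calf 5833. For genes with an expected count of at least 50, each library was set against the mean of the other 3 libraries of its group, and the squared deviation was divided by the variance of Poisson counting. The median of this ratio was 1.33 to 41.6 in 27 libraries, and counting noise alone would give 0.607. It was 0.00806 in the pituitary library of calf 3213 and at most 0.128 in the other 4 of these 5. They lay inside the range of the other 3 libraries of their group for 96.0% to 99.3% of genes, against 12.4% to 71.1% in the other 27. No source used here says how the values in these 5 columns were made, and the reason was not tested. They are called mean-following libraries below. They do not count as replicates of their own, so means ± SD and correlations leave them out, and the other counts and medians over the members are given with them first and without them after. The rule held for 217 genes without them, all among the 218, and for 149 of the 150 members. The exception was no longer under the limit on the ratio of tissue means.

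The pituitary differences were small for most members. The MOET mean was a median of 1.26 times the IVP mean, with a range of 1.18 to 4.02. It was over 2 times higher in 3 members, 1.5 to 2 times higher in 10 and less in 137. On the log2 scale, the ratio of IVP over MOET means had a median of -0.33 with quartiles of -0.43 and -0.28. The same median was 0.06 over all broad genes. Without calf 3213 the members' median was -0.32, the MOET mean was a median of 1.25 times the IVP mean, and it was again over 2 times higher in 3 members and 1.5 to 2 times higher in 10.

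The space between the groups was narrow as well. The lowest MOET pituitary was a median of 1.06 times the highest IVP pituitary. In 60 members it exceeded that value by under 5%, and in 12 members it was at least 1.2 times that value. These 3 values were the same without calf 3213. At the limit of the list, the member of rank 150 had a log2 ratio of -0.2402 (32.4 CPM in IVP and 38.3 CPM in MOET), and the next gene outside had -0.2398 (77.7 and 91.8 CPM).

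Members spanned mean pituitary levels of 2.44 to 1573 CPM, with a median of 24.2 CPM beside 29.3 CPM for broad genes. Of these, 31 were under 10 CPM, with a median log2 ratio of -0.52. Another 104 lay between 10 and 100 CPM and 15 at 100 CPM or more, and both of these classes had a median of -0.31. The larger ratios thus sat among the members with the fewest counts, where the lowest count in a single pituitary was 33.

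The first member, ENSBTAG00000007850, had 3.58, 2.74, 1.96 and 4.27 CPM in the pituitaries of IVP calves 3208, 3209, 5833 and 5841. It had 4.84, 27.2 and 6.70 CPM in MOET calves 3217, 3218 and 5932, and 11.7 CPM in the mean-following library. Calf 3218 stood far above the rest, and calf 3217 lay close to the highest IVP calf. The means were 3.14 ± 1.01 CPM (SD, n = 4) in IVP and 12.9 ± 12.4 CPM (SD, n = 3) in MOET. The MOET mean was 4.02 times the IVP mean over all 8 libraries, 4.12 times without calf 3213 and 2.46 times without calf 3218.

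The same gene did not keep this order elsewhere. Its hypothalamus levels were 5.39, 4.14, 8.04 and 2.01 CPM in IVP calves 3208, 3209, 5833 and 5841, and 1.89, 3.32 and 2.94 CPM in MOET calves 3217, 3218 and 5932. The IVP calves reached higher there, and the ranges overlapped. Adrenal means were 6.68 ± 2.25 CPM (SD, n = 3) in IVP and 6.60 ± 0.326 CPM (SD, n = 3) in MOET, a difference smaller than the spread. Testicle means were 2.24 ± 0.319 CPM (SD, n = 4) and 3.19 ± 0.767 CPM (SD, n = 3).

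The second member, ENSBTAG00000030882, had 2.34, 1.55, 1.502 and 2.27 CPM in the IVP pituitaries, in the same order of calves. The MOET pituitaries held 2.64, 7.31 and 2.36 CPM, and the mean-following library 3.92 CPM. Here too calf 3218 stood apart, and calf 5932 was barely above IVP calf 3208. The MOET mean was 2.12 times the IVP mean, and 1.55 times without calf 3218. Testicle means were 4.76 ± 0.972 CPM (SD, n = 4) in IVP and 4.12 ± 0.877 CPM (SD, n = 3) in MOET, so the order of the means was the opposite there.

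In the members of ranks 3, 4 and 7 no single calf stood apart in this way. The member of rank 3 had 1.59, 2.33, 1.82 and 2.41 CPM in the IVP pituitaries and 4.35, 3.21 and 4.67 CPM in MOET calves 3217, 3218 and 5932. The member of rank 4 had 13.3, 12.7, 9.61 and 10.96 CPM in IVP and 19.3, 19.97 and 22.7 CPM in MOET. For rank 7 the values were 5.30, 6.80, 6.65 and 7.05 CPM in IVP and 10.8, 12.02 and 10.5 CPM in MOET. The groups were well apart in each of these, with a lowest MOET value above 10 CPM and no IVP value over 7.05 CPM for rank 7. Rank 6 had much lower values in IVP calf 5833 (10.8 CPM) than in IVP calf 5841 (18.96 CPM), which came close to MOET calf 3217 (19.2 CPM).

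**Figure D1:**
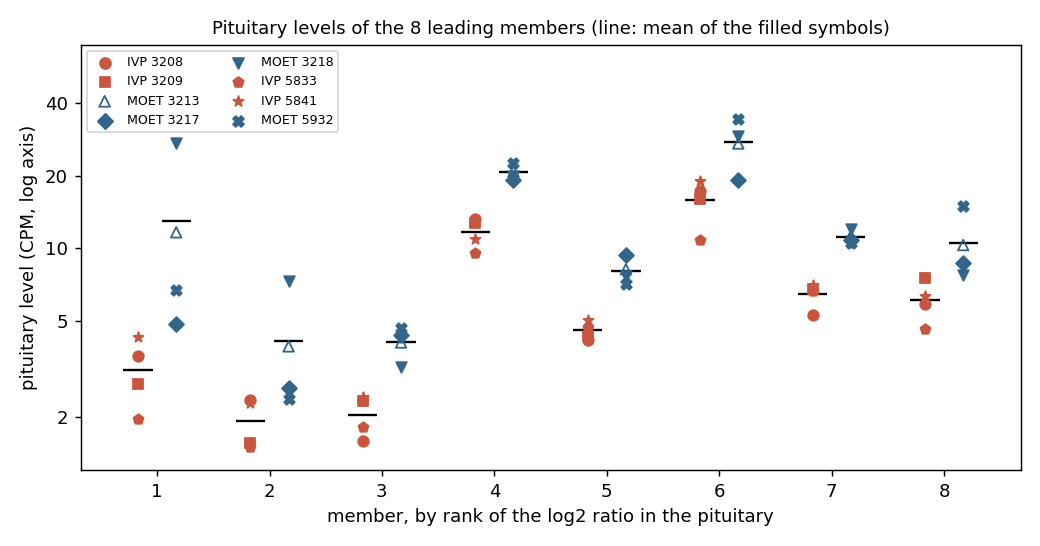
Pituitary level in CPM (log axis) of the 8 members of highest rank, 1 symbol per library, red for IVP and blue for MOET. The open triangle is the mean-following library of calf 3213, and the line is the mean of the filled symbols. In ranks 1 and 2 calf 3218, at 27.2 and 7.31 CPM, lies far above the other MOET calves, while the ranges of rank 4 are 9.61 to 13.3 CPM and 19.3 to 22.7 CPM.

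The member with the highest pituitary level, rank 123, had 1313, 1347, 1503 and 1548 CPM in the IVP calves. The 3 MOET calves had 1766, 1635 and 1736 CPM. The groups did not overlap, and the means were 1428 ± 115 CPM (SD, n = 4) and 1712 ± 68.5 CPM (SD, n = 3). In the adrenal the same member was higher in IVP on the mean, with 4078 ± 536 CPM (SD, n = 3) against 3520 ± 456 CPM (SD, n = 3). Those adrenal ranges overlapped. The next 4 members by level, ranks 81, 141, 98 and 76, had the same pair of directions. Their log2 ratios without the mean-following libraries were -0.32, -0.24, -0.30 and -0.32 in the pituitary. In the adrenal they were 0.30, 0.37, 0.37 and 0.48.

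The plot of all members by library shows the step between the origins in the pituitary and other contrasts elsewhere. The highest MOET pituitary, calf 3213 left out, was calf 5932 in 95 members, calf 3217 in 30 and calf 3218 in 25. The lowest IVP pituitary was calf 3208 in 73 members, and the highest IVP pituitary was calf 5841 in 87. Calves 5841 and 5932 thus held the top place of their group in most members. In both, the 100 genes with the most counts took a smaller share of the pituitary counts, 38.1% and 38.0%, than the 42.1% to 50.2% in the other 6 pituitaries. The part of this difference in the members' values was not tested.

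**Figure D2:**
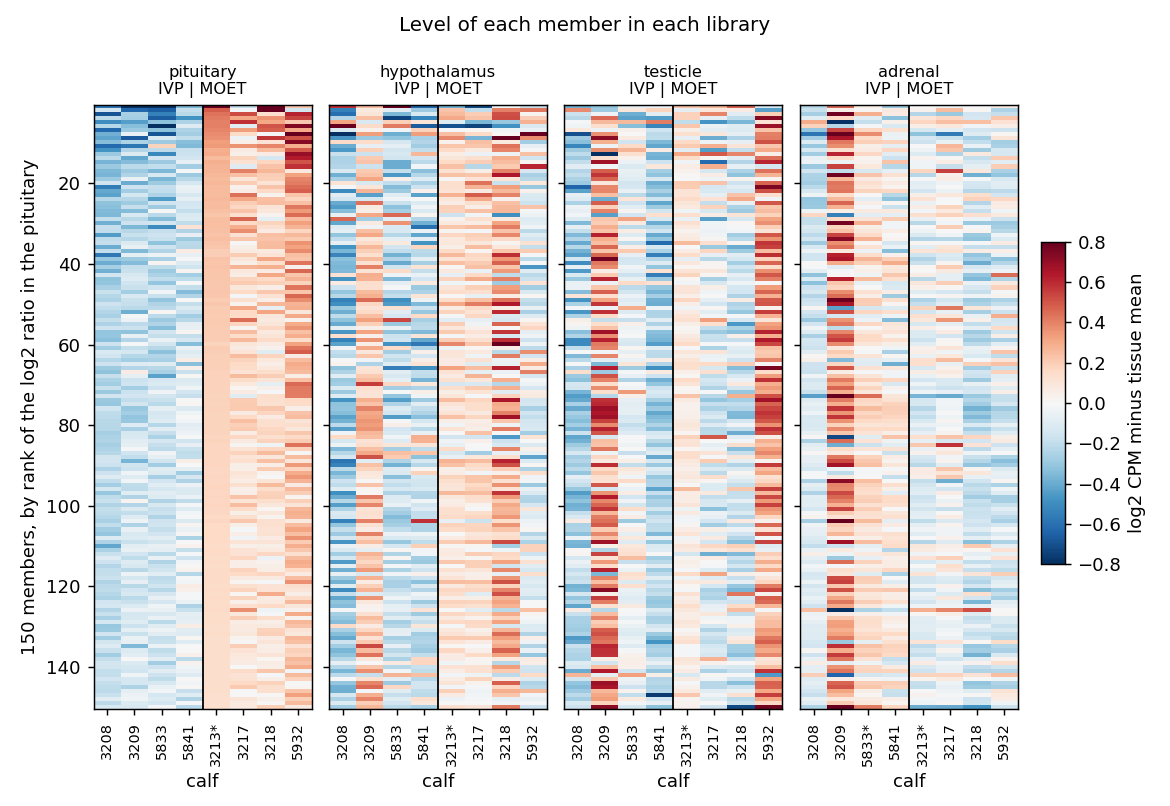
Each row is 1 of the 150 members, by rank in the pituitary, and each column 1 library, with the log2 CPM minus the mean of the 8 libraries of that tissue in colour. An asterisk marks a mean-following library. The pituitary panel is blue in IVP and red in MOET by the choice of the members, and the testicle panel is reddest in IVP calf 3209 and MOET calf 5932.

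The rule kept genes whose ranges overlapped in the other tissues, but the members' means were not equal there. In the hypothalamus, IVP over MOET had a median log2 ratio of -0.17 over the members and 0.15 over all broad genes. In the adrenal the medians were 0.18 and -0.16, and in the testicle -0.09 and -0.06. The rule itself drew on the 3834 broad genes whose ranges overlapped in these 3 tissues, whatever their pituitary levels, and their medians lay close to 0 in the hypothalamus (0.05) and adrenal (-0.01) and at -0.06 in the testicle. Leaving out the mean-following libraries gave -0.17, -0.10 and 0.17 in the hypothalamus, testicle and adrenal.

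The scale of a library matters for these signs, since CPM shares a fixed sum among all genes. TMM factors, which set the bulk of genes equal between libraries, moved the median of the broad genes by -0.16 in the hypothalamus, 0.12 in the testicle and 0.19 in the adrenal. Set against the median of the overlapping broad genes by CPM, the members' median was -0.35 for pituitary, -0.22 for hypothalamus, -0.03 for testicle and 0.19 for adrenal. Without the mean-following libraries these differences were -0.35, -0.22, -0.04 and 0.19. Set against the median of all broad genes, the members' median was -0.39 in the pituitary, -0.32 in the hypothalamus, -0.03 in the testicle and 0.33 in the adrenal. In the edgeR fit with TMM factors the same differences were -0.40, -0.33, -0.01 and 0.33. That fit gave a negative value to 141 of 150 members in the hypothalamus and a positive one to 137 of 150 in the adrenal. The testicle median had the opposite sign with TMM factors, 0.05 in place of -0.09. Every comparison within a tissue used the same libraries that chose the members.

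The word "only" therefore applies to ranges and not to means. By CPM, 60 members had a larger log2 ratio, in either direction, in another tissue than in the pituitary. For 36 of them this was the case in the adrenal, for 28 in the hypothalamus and for 9 in the testicle, some in more than 1 tissue. Without the mean-following libraries 61 members did so. Members with a lower IVP mean in the hypothalamus and a higher one in the adrenal numbered 93, or 62.0%, with or without the mean-following libraries. This pair of signs was found in 30.0% of the overlapping broad genes and in 21.7% of all broad genes, or 29.3% and 21.3% without those libraries.

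**Figure D3:**
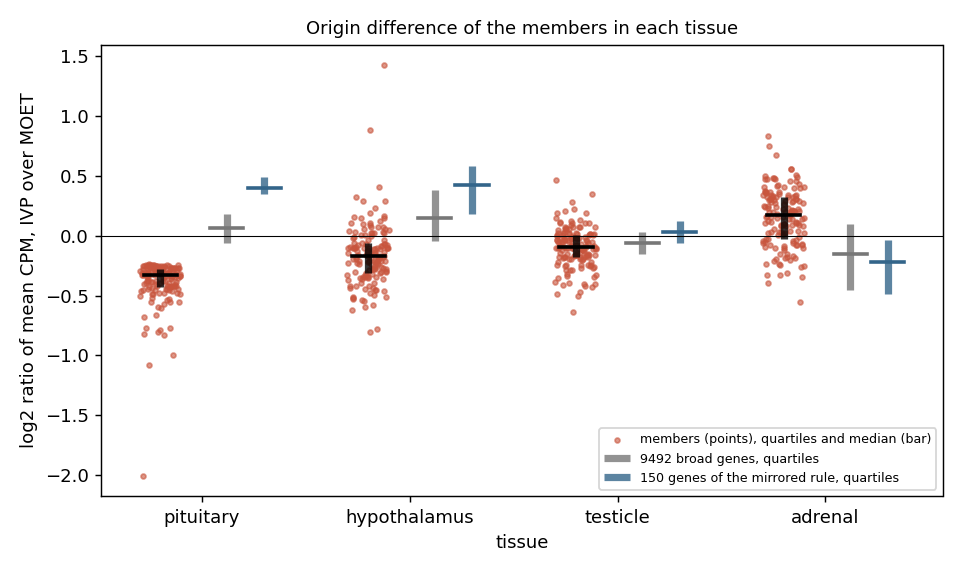
Log2 ratio of IVP over MOET mean CPM in each tissue for the 150 members (red points, with a bar for the quartiles and a line at the median), all 9492 broad genes (grey) and the 150 genes of the same rule with the direction reversed (blue). The members' median is -0.33 in the pituitary, where the rule chose it, -0.17 in the hypothalamus, -0.09 in the testicle and 0.18 in the adrenal.

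Of the 9492 broad genes, 3.74% had all IVP pituitaries below all MOET pituitaries, and 8.59% had them above. These were 355 and 815 genes, and 353 and 820 of 9514 broad genes without the mean-following libraries. Of the 355 that were lower, 137 (38.6%) had ranges apart in 1 or more other tissues too and so were not members. The same held for 67.2% of the 815 that were higher. Of all 9492 broad genes, 3834 had overlapping ranges in every other tissue, so ranges apart elsewhere were common. Of the 137, 68 were higher and 31 lower in the IVP adrenal. In the hypothalamus 25 were lower and 8 higher, and in the testicle 23 were lower and 0 higher. The shares of all broad genes by tissue and direction are not given for CPM, so nothing is read from these splits. With TMM-scaled CPM, 124 of 150 members still had pituitary ranges apart, and 80 of 150 still met the whole rule. At that scale 43 members had all IVP adrenals above all MOET adrenals, beside 24.8% of broad genes, and 6 had all IVP hypothalami below all MOET hypothalami, beside 4.78%. These 4 counts of members were the same without the mean-following libraries.

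edgeR's quasi-likelihood test, with p-values adjusted by Benjamini-Hochberg over all genes of a tissue at a threshold of 0.05, gave the background of calls. In the pituitary it called 7.78% of 15807 genes lower in IVP, and 131 of the 150 members among them, which the rule had picked on the same values. Without calf 3213 it called 1.36% of genes and 53 members. Without IVP calf 3208 it called 2.52% and 78 members. For the 2 leading members, ENSBTAG00000007850 and ENSBTAG00000030882, the edgeR log2 fold changes over 8 libraries were -2.15 ± 0.62 (SE) and -1.20 ± 0.42 (SE), with adjusted p values of 0.0522 and 0.0802. They moved to -1.31 and -0.64 without calf 3218. The call of the first depended on the calves, with an edgeR adjusted p of 0.0306, 0.0382 and 0.0448 without MOET calf 3217, 3218 or 5932, and 0.125 without calf 3213. The second was past the threshold without calf 5932 alone (adjusted p = 0.0352, edgeR), and had 0.152 without calf 3213. The rule ranked these 2 members on the same pituitary values, so these p values describe them and test nothing.

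Calls in the adrenal depended on which libraries were kept. With all 8 adrenals edgeR called 20.8% of genes higher in IVP, and 78 of the 150 members. Without the adrenals of MOET calf 3213 and IVP calf 5833 it called 2 genes of 15595, or 0.0128%, and 0 members. The members' median log2 fold change was 0.37 in both fits, and 137 of 150 were positive in each. The median over broad genes was 0.04 in both. Leaving out MOET calf 3218 gave 8.1% of genes and 6 members. When 1 other IVP and 1 other MOET adrenal were left out and the mean-following ones kept, the 9 possible pairs gave 0 to 102 members. Beside these, 0.013% to 25.4% of genes were called. There were 0 members without calves 5841 and 3218 or 5841 and 5932, beside 0.013% and 0.0324% of genes. The higher adrenal values in IVP are thus a description of these calves.

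In the hypothalamus edgeR called 0.056% of genes in either direction (0.00614% without calf 3213) and 0 of the 150 members in both fits. In the testicle it called 0.00612% of genes (0.00605% without calf 3213) and 0 members in either case. The rule required overlapping ranges in both tissues, so these counts are not independent of the rule.

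The level of the members as a whole was followed library by library, as the mean over members of the log2 deviation from the tissue mean, less the same mean over broad genes. In the pituitary this was -0.235, -0.232, -0.162 and -0.244 in IVP calves 3208, 3209, 5833 and 5841. It was 0.186, 0.359 and 0.111 in MOET calves 3217, 3218 and 5932. On this measure the IVP calves lay closer together (-0.218 ± 0.0376, SD, n = 4) than the MOET calves (0.219 ± 0.128, SD, n = 3). Before the broad genes were subtracted, the SDs of the members' deviation were alike, 0.0591 in IVP and 0.0699 in MOET. The rule chose the members on these pituitary values.

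In the hypothalamus IVP calves 3208, 5833 and 5841 were low too, at -0.308, -0.314 and -0.258, but calf 3209 was at 0.182. MOET calves 3217 and 3218 were at 0.170 and 0.437, and calf 5932 at -0.077. So 1 calf of each origin lay on the other side of 0 and made the groups overlap. The group means were -0.175 ± 0.239 (SD, n = 4) and 0.176 ± 0.257 (SD, n = 3).

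In the testicle the extremes were IVP calf 3209 at 0.530 and MOET calf 5932 at 0.419, with the other 5 calves between -0.262 and -0.069. Neither origin was higher beyond its spread there (-0.013 ± 0.373, SD, n = 4, and 0.012 ± 0.353, SD, n = 3). In the adrenal IVP calf 3209 was again the highest, at 0.464, beside 0.132 in calf 5841 and -0.092 in calf 3208. The MOET adrenals had -0.041, -0.246 and -0.232 in calves 3217, 3218 and 5932. Calf 3209, the highest IVP calf in these 3 tissues, was above the tissue mean in 132 members in the hypothalamus, 125 in the testicle and 127 in the adrenal. In the pituitary it was above the mean in 2 members.

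**Figure D4:**
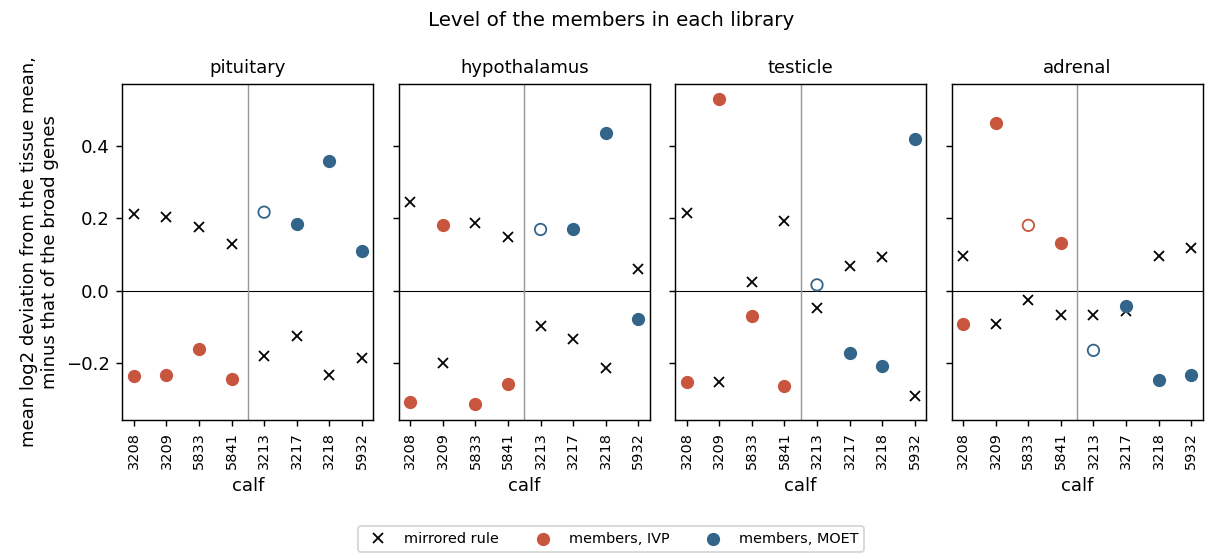
Mean log2 deviation of the 150 members from the tissue mean less that of the broad genes, for each library (red IVP, blue MOET, open symbols for mean-following libraries). Crosses give the same measure, also less that of the broad genes, for the 150 genes of the reversed rule. Calf 3209 is at -0.232 in the pituitary but at 0.182, 0.530 and 0.464 in the hypothalamus, testicle and adrenal.

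Genes that met the same rule with the direction reversed served as a comparison. There were 267 of them, and the 150 with the largest ratios were higher in the IVP pituitary by a median log2 ratio of 0.40. By CPM, their medians in the other tissues were 0.42 in the hypothalamus, 0.03 in the testicle and -0.22 in the adrenal, each of opposite sign to that of the members, and 0.42, 0.02 and -0.22 without the mean-following libraries. Over all broad genes the medians were 0.15 in the hypothalamus and -0.16 in the adrenal, with the sign of the reversed set. In the testicle their median was -0.06, with the sign of the members. In 2 testicle libraries the 2 sets also ran against each other. IVP calf 3209 had a mean deviation from the tissue mean of 0.29 over the members and -0.50 over the reversed set, and MOET calf 5932 had 0.32 and -0.39. Broad genes were at -0.24 and -0.10 in these libraries, on the side of the reversed set.

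Members varied together across the calves of a tissue outside the pituitary. After the mean of each origin was removed, the mean pairwise correlation between members over the libraries other than the mean-following ones was 0.40 for hypothalamus, 0.53 for testicle and 0.45 for adrenal. Over the reversed set it was 0.47, 0.51 and 0.30, so both chosen sets did this, and over all broad genes it was 0.07, 0.07 and 0.04. Correlations of opposite sign cancel in such a mean. The first component, the pattern over libraries with the most variance, held 59.8%, 85.4% and 78.7% of the members' variance in these tissues. For broad genes it held 73.8%, 89.1% and 75.1%. So these values do not show that members shared more of their variation than broad genes did. The rule also used the ranges in these tissues. In the pituitary the mean correlation was 0.22 over the members, 0.52 over the reversed set and 0.51 over broad genes. Nothing is read from the members' value there because the rule chose on it. These values rest on 7 libraries, 6 in the adrenal, that share depth and composition within a calf, and they are a description. The median SD of a member within an origin was 0.12 on the log2 scale for pituitary, 0.23 for hypothalamus, 0.28 for testicle and 0.20 for adrenal. For broad genes it was 0.16, 0.20, 0.24 and 0.17 in the same order, so the pituitary had the smallest spread there too, and ranges that do not overlap favour genes of small spread.

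The tissue in which a member was highest was not used by the rule. The adrenal had the highest mean in 79 members (52.7%), against 33.0% of broad genes. The pituitary had the lowest mean in 65 members (43.3%), against 31.9% of broad genes. In MOET libraries alone, where the choice had favoured high pituitary levels, the adrenal was highest in 47.3% of members and 35.3% of broad genes, and the pituitary lowest in 37.3% and 31.9%. Without the mean-following libraries the adrenal was highest in 54.7% of members and the pituitary lowest in 44.7%, and in MOET alone the 2 shares of members were unchanged. The median level of the members was 24.2 CPM in the pituitary, 29.9 CPM for hypothalamus, 27.8 CPM for testicle and 41.2 CPM for adrenal.

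**Figure D5:**
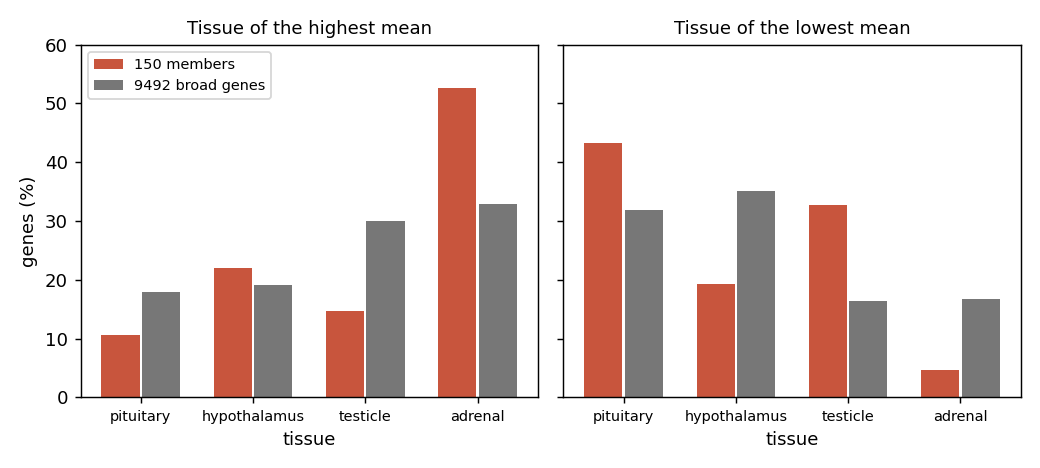
Share of genes, in percent, whose highest (left) or lowest (right) mean CPM over 8 libraries was in each tissue, for the 150 members (red) and the 9492 broad genes (grey). The adrenal was highest in 52.7% of members and 33.0% of broad genes, and the pituitary lowest in 43.3% and 31.9%.

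The pituitary was tested against the mean of the other 3 tissues with edgeR's quasi-likelihood test over all 32 libraries. The adjusted p was under 0.05 and the pituitary lower for 84 of 150 members, beside 37.1% of all 18242 genes tested. The pituitary was higher for 27, beside 40.9%. Of the 9492 broad genes, from which the rule drew, 38.0% were lower and 41.7% higher. The low IVP pituitary values that the rule picked enter this test, so its counts are not independent of the rule. Without the mean-following libraries the counts were 76, beside 34.4%, and 26, beside 37.9%. In MOET libraries alone they were 52, beside 35.3%, and 35, beside 36.1%, so the share of lower members was then near that of all genes. In IVP libraries alone, where the rule had picked low pituitary values, they were 97, beside 35.7%, and 14, beside 33.7%. The first member had a log2 fold change of 0.86 ± 0.22 (SE) over the mean of the other tissues (adjusted p = 0.00107, edgeR). With a block for calf it was 0.76 ± 0.22 (SE, adjusted p = 0.00294, edgeR). Without the mean-following libraries it was 0.89 ± 0.27 (SE, adjusted p = 0.00504, edgeR), and it fell to 0.49 without calf 3218. A higher pituitary level does not hold against each tissue, since this member's pituitary level was above its adrenal level in 2 of 8 calves. In IVP libraries alone the fold change was -0.36 (adjusted p = 0.26, edgeR). The second member had -0.12 ± 0.17 (SE, adjusted p = 0.535, edgeR) and -0.37 without calf 3218 (adjusted p = 0.0206, edgeR).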

How the data were processed

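The deposited values are the authors' raw counts per gene, in 1 table of 27607 Ensembl IDs by 32 libraries with 0 columns of other series. Per the labels' protocols, libraries were made from poly(A) RNA without keeping the strand, sequenced on a DNBSEQ instrument, and cleaned with SOAPnuke. According to what is listed per the submitters' processing notes, STAR 2.7, HTSeq and the bosTau9 build were used. No source used here gives the counting settings or the annotation release. Since strand was not kept, reads from a gene and from one overlapping it in antisense cannot be separated.

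Groups and ages came from the labels. CPM is the count over the library total, and log2 CPM per library used a pseudocount of 0.5. Tests were edgeR 4.0.16 quasi-likelihood fits (filterByExpr with a minimum count of 10 and a minimum total of 15, TMM, adjusted p threshold 0.05) in R 4.3.3, with DESeq2 1.42.0 as an alternative. They were checked on simulated data. Figures used Python 3.11.15 and matplotlib 3.10.9. Replicates are separate calves, whose number decides the precision. Libraries of 1 calf carry 1 animal number in the labels, which pairs libraries across tissues and not across origins. Deviations of the libraries of 1 calf from their group means correlated between tissues with a mean r of -0.11 to 0.46 over 7 calves, calf 3213 left out. Alternatives were other scalings, levels and ratios in the rule, a block for calf, a covariate for age, single origins and each calf left out. For the rule, only the pituitary library of that calf was left out. The fits without the mean-following libraries, or without pairs of other adrenals, were added after the data were seen.

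No 2 libraries of a group were the same within sampling noise in 48 pairwise comparisons (chi-square per degree of freedom of 5.21 to 203). The mean-following libraries appeared in the comparison with the group mean. The members, the rule and the planned lists were chosen with earlier results of these data known. Members named by ID were limited to 2, the 2 of highest rank, because no symbols could be matched. Planned gene lists and cell type markers could not be used for the same reason.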

Additional observations from a re-analysis of the deposited data

Results flagged for a closer look

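Within groups of 4 calves, a highest or lowest library was marked when its gap to the nearest of the others, over the range of the group, was above Dixon's critical value. Groups with a mean-following library hold 3 calves and were not examined. Of 25 groups examined, 2 were marked, and chance marks about 5% of groups. Among the IVP pituitaries, the level of the members relative to broad genes was highest in calf 5833, at -0.162, with a gap of 0.855 of the range. Among the IVP hypothalami it was highest in calf 3209, at 0.182, with a gap of 0.887 of the range, while the other 3 calves lay between -0.314 and -0.258.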

How the results depend on the processing

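Of the alternatives for the rule, the scale of the libraries kept the fewest of the 150 members, and leaving out the pituitary of IVP calf 5841 moved the number of genes most. The rule held for 218 genes by CPM, for 475 with TMM-scaled totals (80 of the 150 members) and for 576 with totals that left out the 100 most counted genes (88 members). A limit of 3 on the ratio of tissue means left 144 genes. Leaving out the pituitary library of 1 calf, with its other tissues kept, gave 218 to 597 genes. There were 412 without the pituitary of MOET calf 3218 and 597 without that of IVP calf 5841. Pituitary ranges come apart more easily with fewer libraries, so a rise in number is built into this setting.

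The members' median log2 ratio in the pituitary was -0.33 by CPM and -0.36 to -0.31 with 1 calf left out. It was -0.39 in the edgeR fit with TMM factors, -0.39 with DESeq2 size factors, -0.40 with age as a covariate and -0.39 relative to broad genes. In the hypothalamus it went from -0.17 to -0.34 with TMM-scaled totals and to -0.32 relative to broad genes. In the adrenal it went from 0.18 to 0.37 and 0.33. In the testicle it changed sign, to 0.018 with TMM-scaled totals and to 0.0080 without MOET calf 5932, the highest of a leave-out range that began at -0.23. In each case the cause was not tested.

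Members called lower in the pituitary numbered 131, beside 7.78% of all genes tested. With 1 calf left out they numbered 53 to 146, beside 1.36% to 9.52%. These were 78, beside 2.52%, without IVP calf 3208 and 53, beside 1.36%, without MOET calf 3213, the mean-following one. Age as a covariate gave 36, beside 0.873%. As calf 3213 alone was 144 days old, age and that library cannot be told apart. Members called higher in the adrenal numbered 78, beside 20.8% of all genes tested. They numbered 6 to 102, beside 8.1% to 27.2%, when 1 calf was left out. Age as a covariate gave 22, beside 9.7%, and leaving out the mean-following libraries gave 0, beside 0.0128%. Without 1 IVP and 1 MOET adrenal that do not follow their group mean, 9 pairs gave 0 to 102, beside 0.013% to 25.4%. The counts were 36, 6, 20, 22 and 47 without calf 3213, 3218, 5932, 5833 or 5841. In the same order, the shares of all genes were 11.2%, 8.1%, 11.1%, 9.15% and 14.8%. Without calf 3218 the share of members called was below that of all genes. In the tissue comparison, the calf as a replicate block gave 88 lower and 30 higher members in place of 84 and 27. The shares of all genes were 37.4% and 41.6% in place of 37.1% and 40.9%. Leaving out 1 calf gave 77 to 89, beside 34.8% to 38.0%, and 24 to 31, beside 37.5% to 40.1%. MOET libraries alone gave 52 lower members, beside 35.3%, and 44, beside 28.8%, without the mean-following libraries as well. IVP libraries alone gave 14 higher members, beside 33.7%. The other settings kept these counts within 1.5 times.

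Precision is limited by 3 or 4 separate calves per group, by differences of which most are under 1.5-fold, and by gaps between groups that are often smaller than 5%. All tests share the libraries that chose the members. Genes of few counts have the largest ratios and the widest errors.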
